A study of Homo sapiens with 9 samples.

Results

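The D-type cyclins, their kinase partners CDK4 and CDK6, the CDK inhibitors and RB1 form the switch that admits cells into S phase. These 10 genes (CCND1, CCND2, CCND3, CDK4, CDK6, CDKN1A, CDKN1B, CDKN1C, CDKN2B and RB1) were picked by name from the 27673 genes of the count table, and 8 of them passed the filter on low counts and were tested. RNA came from A498, an established human line of clear cell renal cell carcinoma (ccRCC), in 3 groups of 3 biological replicates. Every group was infected with a lentiviral PLKO.1 hairpin vector and selected with puromycin, so the controls share vector and selection with the depleted cells. The shControl group carried a control hairpin, the shBMAL1 group a hairpin against BMAL1, and the shARNT group a hairpin against ARNT. With 1 hairpin group per gene, effects of the hairpin itself and of losing its target cannot be told apart. Whether replicates came from separate infections was not stated, and p-values measure the spread between these libraries.

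D-type cyclins bind CDK4 or CDK6, and the complexes phosphorylate the retinoblastoma protein RB1, which then releases E2F factors that switch on genes for DNA replication. The INK4 inhibitors, among them p15 (CDKN2B), bind CDK4 and CDK6 directly, while the CIP/KIP inhibitors p21 (CDKN1A), p27 (CDKN1B) and p57 (CDKN1C) act mainly on CDK2 complexes and also help to assemble cyclin D with its kinase. A498 cells lack functional VHL and therefore accumulate HIF2α, whose canonical partner is ARNT, and CCND1 is a known HIF2α target in renal carcinoma. BMAL1, the canonical partner of CLOCK, binds the E-box CACGTG, and HIF dimers bind sites built on ACGTG or GCGTG. The authors report that BMAL1 also forms an active dimer with HIF2α in ccRCC cells. They further report that HIF2α recruitment to chromatin was reduced in A498 cells depleted of BMAL1. The shBMAL1 group is therefore not a test of the clock alone.

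The promoter of CDK4 is shown because CDK4 moved in opposite directions in the depletions and because its promoter is rich in E-boxes. The 250 bases before the CDK4 start (RefSeq, GRCh38.p14, chr12:57752311-57752560, minus strand) are given 5′ to 3′ with each CACGTG in capitals. The 3 matches began at -216, -196 and -101 from the start. All 6 matches to ACGTG or GCGTG on either strand of this stretch lie within them. Because CDK4 was picked partly for its E-boxes, their number is not a result, and their part in the CDK4 values was not tested.
CDK4: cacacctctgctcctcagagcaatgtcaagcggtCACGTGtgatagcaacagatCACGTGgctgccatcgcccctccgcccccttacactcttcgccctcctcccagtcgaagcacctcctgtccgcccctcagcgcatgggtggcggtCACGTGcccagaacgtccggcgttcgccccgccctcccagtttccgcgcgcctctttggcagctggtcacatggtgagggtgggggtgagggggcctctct

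CDK6, the member with the largest rise in both depletions, had RefSeq windows at 2 starts. The 250 bases before the downstream start (GRCh38.p14, chr7:92833960-92834209, minus strand) held no CACGTG and 3 matches to ACGTG or GCGTG on either strand, which are in capitals. Of the 2 stretches only this one held matches, so their number is not a result. How many windows hold 3 or more such matches was not counted, and their part in the CDK6 values was not tested.
CDK6: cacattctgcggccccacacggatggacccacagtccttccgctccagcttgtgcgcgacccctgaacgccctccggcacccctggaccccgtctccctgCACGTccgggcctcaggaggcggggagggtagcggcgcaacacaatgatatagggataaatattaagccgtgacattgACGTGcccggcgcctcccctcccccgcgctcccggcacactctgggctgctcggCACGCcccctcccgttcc

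The motifs were searched on both strands in windows from 250 bases before to 50 bases after each start. CACGTG reads the same on both strands and contains an ACGTG on each. It occurred in 7.26% of the 35116 such windows given, in which some genes have several starts and others none. At least 3 were held by 0.094% of windows, among them that of CDK4, which was picked partly for them. The 250 bases before the other CDK6 start held neither motif, and its window had 1 CACGTG, at 30 bases after the start. The windows given for CCND3, CDKN1A, CDKN1B, CDKN2B and RB1 held no CACGTG. Those of CDKN1A and CDKN1B and 1 window of CCND3 each held 1 match to ACGTG or GCGTG, and the rest of them held no match. A match to ACGTG or GCGTG was far more common, in 48.4% of all windows. No window was given for CCND1, CCND2 or CDKN1C. Letter matches describe the sequence and do not show binding.

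Libraries were even in depth, from 35269851 to 36099075 counts. BMAL1, listed as ARNTL, was at 15.9 to 16.7 CPM (counts per 1000000, with library sizes scaled by TMM, the trimmed-mean method of edgeR) in shControl and at 4.12 to 5.54 CPM in shBMAL1, and ARNT was at 48.2 to 52.6 CPM in shControl and 9.13 to 9.95 CPM in shARNT, so each hairpin lowered its target (to 30.9% and 18.8% of control, adjusted p = 1.94e-11 and 1.35e-17). ARNT also fell in shBMAL1, to 30.5 to 33.3 CPM (63.9% of control, adjusted p = 1.54e-08), and BMAL1 rose in shARNT, to 22.5 to 25.1 CPM (146% of control, adjusted p = 8.27e-06). The part of these cross-effects in the results was not tested. The kidney and carcinoma markers PAX8, PAX2, KRT8, KRT18, VIM, CDH2, EPAS1 and CA9 were detected in every library, while NDUFA4L2 had at most 16 counts. Several moved with the groups. EPAS1, the gene of HIF2α, was at 345 ± 18.7 CPM in shControl, 233 ± 18.8 CPM in shBMAL1 and 74.3 ± 3.41 CPM in shARNT (SD, n = 3), and CA9, a HIF target, at 76.4 ± 4.61, 30.2 ± 1.83 and 1.06 ± 0.215 CPM. VIM went from 5970 ± 28.6 CPM in shControl to 4310 ± 263 and 812 ± 28.6 CPM, while PAX8 was at 36 ± 1.92, 40.7 ± 3.69 and 100 ± 5.65 CPM. Of 7 markers of other cell types, 6 had at most 35 counts. The exception was CD68, a lysosomal protein gene used as a macrophage marker, at 1860 ± 68.2 CPM (SD, n = 3) in shControl, 1790 ± 62.4 CPM in shBMAL1 and 142 ± 6.48 CPM in shARNT. The leukocyte marker PTPRC had at most 12 counts. The part of CD68, EPAS1 and the other markers in the results was not tested.

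Depletion of ARNT was compared with the control hairpin to ask how far this cell cycle switch depends on the canonical HIF partner. Among the 8 tested members, 5 were called higher and 2 lower at an adjusted p under 0.1. Of all 15551 genes tested, 81.8% were called, 40.5% higher and 41.3% lower, so a call on its own sets no member apart. Under library size alone, 60.5% of the called genes were higher. The levels of 7 of 8 members did not overlap between the groups, against 79.8% of all genes. Depletion of BMAL1 called 3 members higher and 3 lower, beside 63.3% of all genes called, 31.9% higher and 31.5% lower, and 7 of 8 did not overlap (62.2% of all genes). The median log2 fold change of the members was 0.46 in shARNT and -0.09 in shBMAL1, beside -0.01 and 0.00 for all genes. Without regard to sign, the median change of all genes was 0.66 in shARNT and 0.32 in shBMAL1. In shARNT, CCND3, CDK4, CDKN1C and RB1 changed by less than that, and CCND1, CDK6, CDKN1A and CDKN1B by more. In shBMAL1, CDKN1C and RB1 changed by less, CDK4 (-0.36) and CCND1 (-0.43) by little more, and CCND3, CDK6, CDKN1A and CDKN1B by more.

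CCND1 and CCND3 fell while CDK6, CDKN1A and CDKN1B rose in both depletions, although the fall of CCND3 in shARNT depended on how the libraries were scaled. CDK4 rose in shARNT and fell in shBMAL1, and RB1 rose in shARNT.

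**Figure D1:**
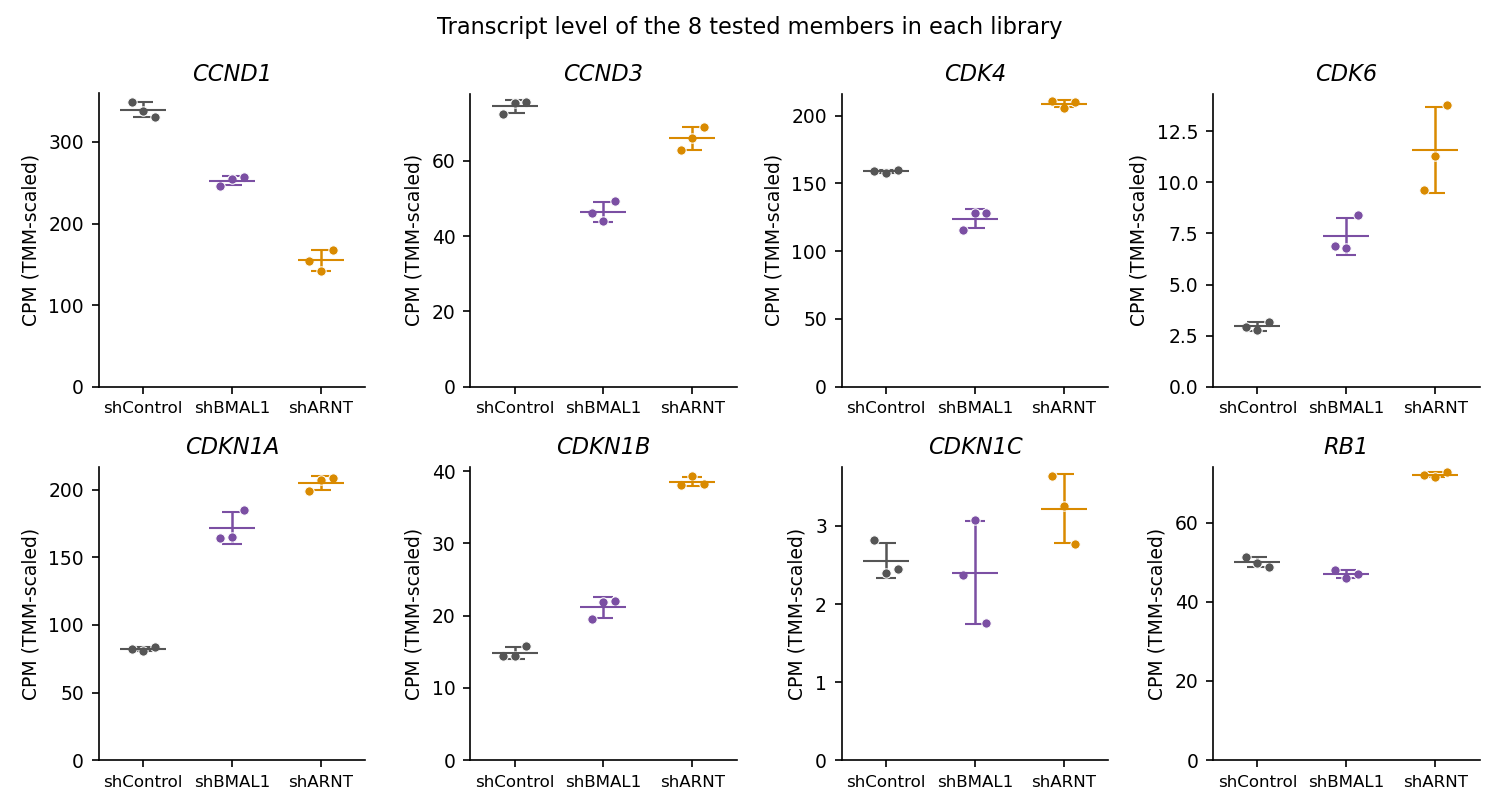
Transcript level (CPM, TMM-scaled, linear axes from 0) of the 8 tested members in each library. Points are libraries, horizontal bars are group means and error bars are the SD of 3 libraries. CCND1 steps down from 331 or more in shControl to 168 or less in shARNT, while CDKN1A steps up from 83.6 or less to 199 or more.

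CCND1 encodes cyclin D1 (chromosome 11, 69455924 to 69469242, GRCh37). Its level was 349, 338 and 331 CPM in the shControl libraries, 246, 255 and 257 CPM in shBMAL1, and 154, 142 and 168 CPM in shARNT. No group overlapped another, with shControl highest and shARNT lowest. The level was 45.5% of control in shARNT, which is -1.14 as a log2 fold change (SE 0.0484, adjusted p = 1.54e-14). This and every other adjusted p of a gene came from the quasi-likelihood test of edgeR, with the Benjamini-Hochberg correction over all tested genes. In shBMAL1 it was 74.4% of control, or -0.43 on the log2 scale (SE 0.0477, adjusted p = 2.15e-07). Set directly against shBMAL1, shARNT was at -0.71 (95% interval -0.81 to -0.61, adjusted p = 3.22e-11). EPAS1 transcript was at 21.5% of control in shARNT and 67.5% in shBMAL1, and its part in the CCND1 values was not tested. In bulk RNA, a lower level per cell and fewer expressing cells cannot be told apart.

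CCND3 (chromosome 6, 41902672 to 42018095), which encodes cyclin D3, showed the reverse order of the depletions. It was at 72.4, 75.3 and 75.7 CPM in shControl, 46.2, 44 and 49.3 CPM in shBMAL1, and 63.0, 66.0 and 69.1 CPM in shARNT. The shBMAL1 libraries were the lowest and those of shARNT lay between. The log2 fold change was -0.68 in shBMAL1 (SE 0.0536, adjusted p = 1.38e-09) and -0.17 in shARNT (SE 0.0523, adjusted p = 0.00532). The shARNT call ended when libraries were scaled by their size alone, where the value was 0.06 (adjusted p = 0.251). That scaling raised the median of all genes by 0.24 in this contrast, so relative to the median the value was lower under both scalings. The direct contrast gave 0.51 (95% interval 0.39 to 0.62, adjusted p = 3.31e-08), and it was 0.70 under library size alone.

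CCND2 (chromosome 12, 4378937 to 4414519), which encodes cyclin D2, was not tested. It had 1 count in shBMAL1 replicate 1 and 0 in each of the other 8 libraries. A count of 0 allows up to 3 counts of the total, or 0.0831 to 0.0851 CPM in a library by its size alone, by counting error alone.

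The make-up of the cyclin D pool was then examined as a share within each library, which does not depend on scaling between libraries. Counts were divided by the length of the canonical transcript. CCND1 held 69.8%, 68.2% and 67.6% of D-type cyclin transcripts in shControl, 71.8%, 73.4% and 71.4% in shBMAL1, and 53.9%, 50.7% and 53.7% in shARNT. CCND1 thus remained the larger part in every library, by the least in shARNT. The difference from control was -15.8 percentage points in shARNT and 3.67 points in shBMAL1. Each comparison gave an exact permutation p = 0.1 (two-sided, adjusted p = 0.113 over 9 share tests), the smallest that 3 against 3 libraries allow. Without division by length the differences were -12.0 and 2.45 points.

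CDK4 (chromosome 12, 58141510 to 58149796), the main kinase partner of D cyclins in these cells by level, was at 159, 158 and 160 CPM in shControl. It was at 116, 128 and 128 CPM in shBMAL1 and at 211, 206 and 210 CPM in shARNT. All shBMAL1 libraries were below, and all shARNT libraries above, every shControl library. The log2 fold changes were -0.36 in shBMAL1 (SE 0.0427, adjusted p = 4.89e-07) and 0.39 in shARNT (SE 0.042, adjusted p = 3.9e-08), and the direct contrast gave 0.75 (95% interval 0.66 to 0.84, adjusted p = 1.53e-12). Its promoter window held the 3 E-boxes printed above, whose part in these values was not tested. Its 3′ end overlaps TSPAN31 on the opposite strand, and no source used here says whether reads were assigned by strand. TSPAN31 fell with both hairpins (-0.92 and -0.22 for shARNT and shBMAL1, adjusted p = 3.63e-10 and 0.0117).

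CDK6 (chromosome 7, 92234235 to 92465887), the other D cyclin kinase, was scarce in control cells. It had 91 to 105 counts in control libraries, 234 to 286 in shBMAL1 and 382 to 549 in shARNT, which gave 2.95 ± 0.21, 7.36 ± 0.911 and 11.6 ± 2.11 CPM (SD, n = 3). The groups did not overlap. CDK6 was 3.92-fold higher than control in shARNT (log2 fold change 1.97, SE 0.144, adjusted p = 9.72e-11) and 2.49-fold higher in shBMAL1 (1.32, SE 0.149, adjusted p = 2.52e-07). The depletions differed by 0.66 (95% interval 0.39 to 0.92, adjusted p = 1.1e-04). Even so, CDK6 made up only 0.725% to 1.04% of CDK4 and CDK6 transcripts per length in the 6 depleted libraries and 0.278% to 0.316% in shControl. The share differed from control by 0.584 points in shARNT and 0.644 points in shBMAL1 (exact permutation p = 0.1 each, adjusted p = 0.113). These differences were 3.43 and 3.77 points without division by length and 0.916 and 1.01 points with merged exon length. Between the depletions it overlapped (difference -0.0599 points, exact permutation p = 0.7, adjusted p = 0.7), and without shARNT replicate 1 that difference was 0.0171 points.

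CDKN1A (chromosome 6, 36644237 to 36655114) encodes p21, an inhibitor of CDK2 complexes. It was at 82.2, 80.6 and 83.6 CPM in shControl, 164, 165 and 185 CPM in shBMAL1, and 199, 207 and 209 CPM in shARNT. Every depleted library was above every control library, and the depletions did not overlap. CDKN1A was 2.5-fold higher in shARNT (log2 fold change 1.32, SE 0.0474, adjusted p = 9.23e-16) and 2.09-fold higher in shBMAL1 (1.06, SE 0.0474, adjusted p = 2.5e-13). The direct contrast was 0.26 (95% interval 0.17 to 0.36, adjusted p = 3.06e-05).

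CDKN1B (chromosome 12, 12838432 to 12875303), which encodes p27, was at 14.4, 14.4 and 15.8 CPM in shControl, 19.5, 21.9 and 22 CPM in shBMAL1, and 38.1, 39.3 and 38.2 CPM in shARNT. The groups did not overlap, and shARNT stood well above the others. The log2 fold change was 1.38 in shARNT (SE 0.0681, adjusted p = 1.77e-13) and 0.51 in shBMAL1 (SE 0.0708, adjusted p = 3.83e-06). The depletions differed by 0.87 (95% interval 0.73 to 1.00, adjusted p = 1.86e-10), more than for CDKN1A.

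CDKN1C (chromosome 11, 2904443 to 2907005), which encodes p57, was low and variable, with 60 to 144 counts over the 9 libraries. Its level was 2.56 ± 0.231 CPM in shControl, 2.40 ± 0.657 CPM in shBMAL1 and 3.22 ± 0.433 CPM in shARNT (SD, n = 3), and all groups overlapped. CDKN1C was not called in shARNT (0.33, 95% interval -0.07 to 0.73, adjusted p = 0.119) or in shBMAL1 (-0.09, 95% interval -0.51 to 0.33, adjusted p = 0.724). The shARNT value was called under library size alone (0.57, adjusted p = 0.0112) and in a fit of the 6 libraries of the contrast (0.32, adjusted p = 0.0855). It was also called without shControl replicate 1, shBMAL1 replicate 2, shBMAL1 replicate 3 or shARNT replicate 3 (adjusted p = 0.0994, 0.0921, 0.0894 and 0.0676), so it lay near the threshold. The direct contrast was called at 0.42 (SE 0.192, adjusted p = 0.052), but it rested on single libraries. Without shBMAL1 replicate 1, shBMAL1 replicate 3 or shARNT replicate 1 it was 0.41, 0.24 and 0.33, with an adjusted p of 0.106, 0.269 and 0.175.

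CDKN2B (chromosome 9, 22002902 to 22009304), which encodes p15, had 0 counts in all 9 libraries and was not tested. Its neighbour CDKN2A, the gene of p16, also had 0 counts throughout, and the antisense transcript CDKN2B-AS1 had 2 counts in 1 library and none in the others. MTAP, the next gene beyond CDKN2A and chosen after its values were seen, had 1269 to 3016 counts. CCND2 and CDKN2B were the members without measurable transcript, within the limit that a count of 0 allows.

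RB1 (chromosome 13, 48877880 to 49173572), the substrate of the D cyclin kinases, was at 51.4, 49.9 and 48.9 CPM in shControl, 48.0, 46.1 and 47.0 CPM in shBMAL1, and 72.1, 71.4 and 72.7 CPM in shARNT. The shARNT libraries were the highest, and the shBMAL1 libraries lay just under those of shControl without overlap. RB1 was 1.44-fold higher in shARNT (log2 fold change 0.52, SE 0.047, adjusted p = 2.56e-09). In shBMAL1 the value of -0.09 was not called (95% interval -0.19 to 0.01, adjusted p = 0.115), although scaling by DESeq2 size factors gave -0.10 with an adjusted p of 0.0914. The direct contrast gave 0.62 (adjusted p = 2.18e-10). LPAR6, which lies within RB1 on the other strand, had 32 to 55 counts. It fell in shARNT (-0.68, adjusted p = 0.0105) and was at -0.06 in shBMAL1 (adjusted p = 0.841).

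**Figure D2:**
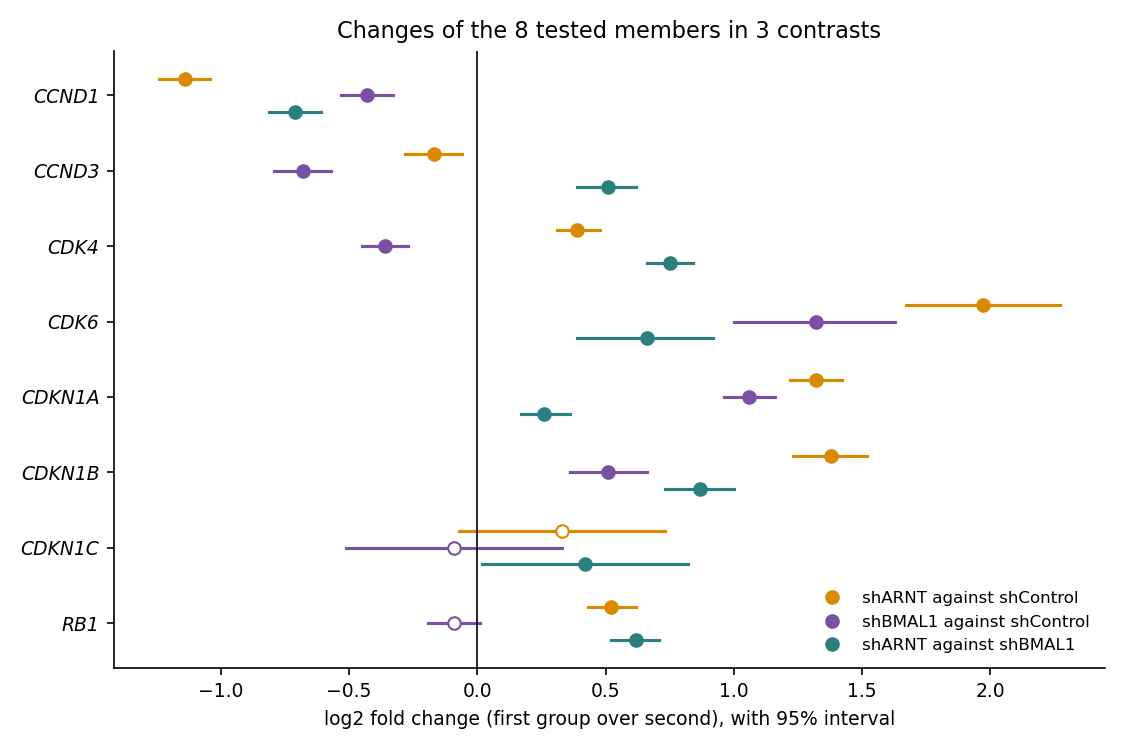
Log2 fold change (x axis) of each tested member in 3 contrasts, with the first-named group over the second. Points are estimates from the edgeR fit of 9 libraries, lines are 95% intervals, and open points were not called at an adjusted p under 0.1. CDK4 lies on opposite sides of 0 in the depletions (0.39 and -0.36), and CDKN1C has the widest intervals.

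The direct contrast of shARNT with shBMAL1 used no control library. It called all 8 tested members, 7 higher and 1 lower in shARNT, beside 81.2% of all genes called, 40.1% higher and 41.1% lower. The levels of 7 of 8 members did not overlap, against 79.6% of all genes. CCND1 was the member that was lower. Without regard to sign, the median change of all genes in this contrast was 0.64. CCND3, CDKN1A, CDKN1C and RB1 differed by less than that, and CCND1, CDK4, CDK6 and CDKN1B by more. The comparisons of each depletion with shControl share the control libraries, so a like direction in both is not independent evidence.

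Levels between genes were compared per length of transcript, as CPM per kilobase. In shControl, CDK4 (85.3 ± 0.554) and CCND1 (80.1 ± 2.12) were the highest, followed by CDKN1A (38.8 ± 0.709), CCND3 (36.8 ± 0.904), RB1 (10.5 ± 0.264), CDKN1B (6.16 ± 0.345), CDKN1C (1.44 ± 0.13) and CDK6 (0.253 ± 0.018). In shBMAL1, CDKN1A (80.9 ± 5.44) stood first, ahead of CDK4 (66.5 ± 3.73) and CCND1 (59.7 ± 1.34). In shARNT, CDK4 (112 ± 1.43) and CDKN1A (96.9 ± 2.67) led, and CCND1 (36.5 ± 3.02) and CCND3 (32.6 ± 1.52) overlapped. The canonical transcript of CCND3 has 2026 bases and its merged exons 5761, so such orders between genes depend on which transcripts the cells use.

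Summed per length, D-type cyclins were at 116 to 118 CPM per kilobase in control libraries, 80.9 to 85.0 in shBMAL1 and 66.1 to 73.7 in shARNT. The CIP/KIP inhibitors went the other way, with 45.4 to 47.4 in control libraries, 86.9 to 97.3 after BMAL1 depletion and 112 to 116 after ARNT depletion. The ratio of CIP/KIP to D-type cyclin transcripts within a library, which no scaling between libraries can alter, was 0.388 to 0.41 in control libraries, 1.07 to 1.14 after BMAL1 depletion and 1.58 to 1.76 after ARNT depletion. The order of the groups was the same with merged exon length (0.349 to 0.37, 0.961 to 1.03 and 1.59 to 1.81) and without division by length (0.235 to 0.25, 0.635 to 0.679 and 1.06 to 1.2). Inhibitor transcripts therefore outnumbered those of D cyclins in every shARNT library under each of these lengths, whereas in shBMAL1 this depended on the length used. CDK4 and CDK6 together were at 85.1 to 86.2 in shControl, at 62.8 to 69.5 in shBMAL1 and at 111 to 114 in shARNT. These sums were formed after the values were seen and carry no test.

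**Figure D3:**
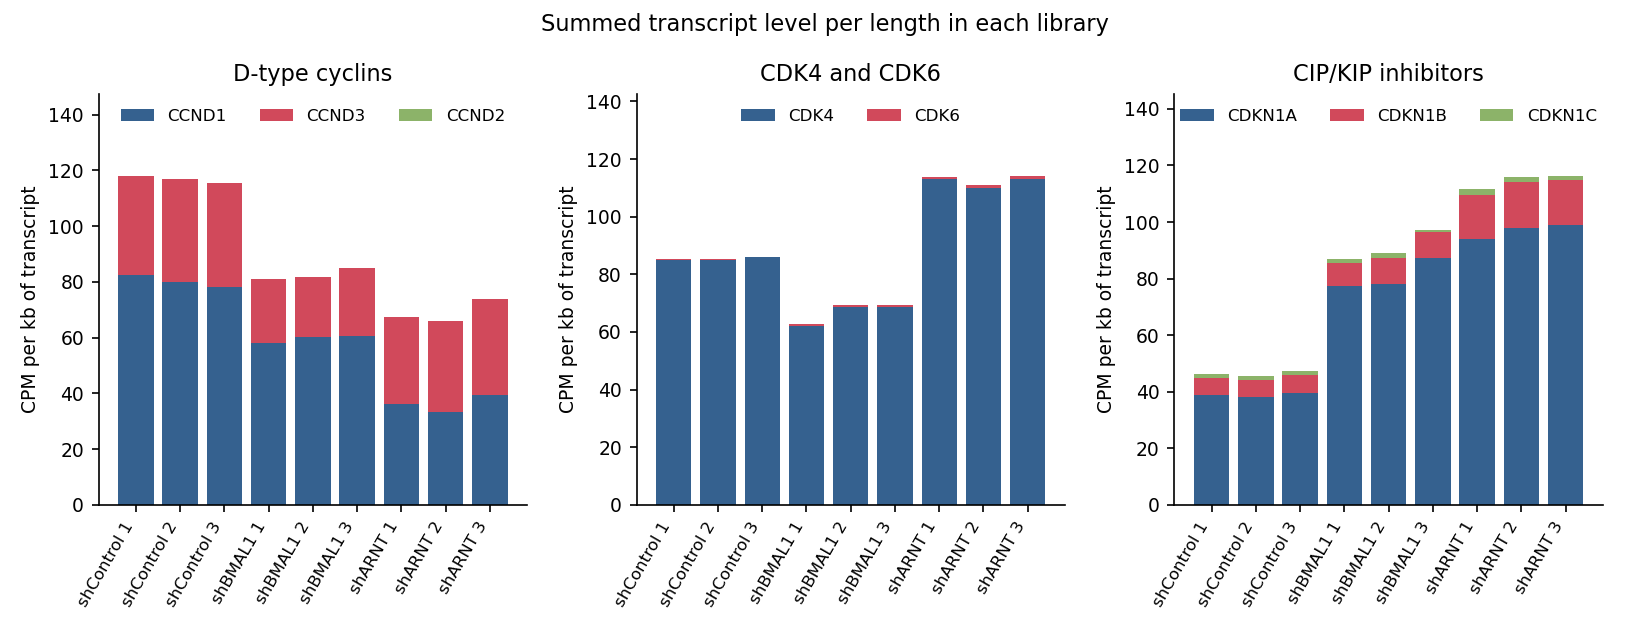
Summed transcript level (CPM per kilobase of canonical transcript, linear axes from 0) in each of the 9 libraries, with the genes of each pool stacked. The D-type cyclin bars fall from 116 to 118 in shControl to 66.1 to 73.7 in shARNT, while the CIP/KIP bars, mostly CDKN1A, rise from 45.4 to 47.4 to at least 112.

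Within the CIP/KIP pool, CDKN1A held 83.3% to 83.9% of transcripts per length in control libraries, 87.8% to 89.6% in shBMAL1 and 84.0% to 85.1% in shARNT. The share differed from control by 5.25 points in shBMAL1 and by 0.862 points in shARNT (exact permutation p = 0.1 each, adjusted p = 0.113). Between the depletions the share of p21 was 4.39 points lower in shARNT than in shBMAL1, without overlap (difference -4.39, exact permutation p = 0.1, adjusted p = 0.113). With merged exon length the differences were 3.37 points in shBMAL1, 1.38 points in shARNT and -1.99 points between them.

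Other genes of the pathway were taken from fixed lists. The remaining CDK inhibitors included CDKN2C, which encodes the INK4 inhibitor p18. It fell in shARNT (-1.19, adjusted p = 6.01e-12), rose slightly in shBMAL1 (0.21, adjusted p = 0.0122) and differed between them by -1.40 (adjusted p = 3.58e-13). CDKN2D, which encodes p19, rose in both (0.93 and 0.50, adjusted p = 3.18e-04 and 0.0493) on 45 to 151 counts. The phosphatase gene CDKN3 rose in shBMAL1 (0.60, adjusted p = 5.87e-04) and was called near the threshold in shARNT (0.25, adjusted p = 0.0946). Thus the only INK4 genes with measurable transcript were CDKN2C and CDKN2D.

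The RB1 relatives RBL1 (p107) and RBL2 (p130) moved differently. RBL2, the pocket protein of resting cells, fell in both depletions (-1.06 and -0.37 for shARNT and shBMAL1, adjusted p = 4.05e-14 and 1.34e-06). RBL1 was called higher in shARNT (0.20, adjusted p = 0.0514) and lower in shBMAL1 (-0.25, adjusted p = 0.0268).

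Of the 10 E2F and DP factors, 7 were called higher and 1 lower in shARNT, with a median log2 fold change of 0.67. Of all genes, 40.5% were higher and 41.3% lower there, with a median of -0.01. Under library size alone, 8 factors were higher and 1 lower, with a median of 0.91, and the median of all genes rose by 0.24. In shBMAL1 there were 3 higher and 4 lower, with a median of -0.12. These counts lie near the 31.9% higher and 31.5% lower of all genes, whose median was 0.00. In shARNT the largest called changes among those with a log2 CPM averaging 2 or more were those of E2F6, E2F4 and E2F5, which are mainly repressors. They rose in shARNT by 1.5, 1.38 and 1.27 (adjusted p = 1.7e-13, 6.5e-16 and 2.61e-12) and in shBMAL1 by 0.65, 0.43 and 0.41 (adjusted p = 5.15e-07, 3.14e-07 and 1.55e-04). The 4 lower in shBMAL1, named after their values were seen, were TFDP2 (-0.75), E2F8 (-0.66), E2F1 (-0.47) and TFDP1 (-0.22), with an adjusted p of 5.33e-08, 3.64e-04, 0.00115 and 9.38e-04.

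S phase genes under E2F control, such as the MCM helicase subunits, were lower in shBMAL1. In that depletion 17 of 19 tested genes were called lower and none higher, with a median of -0.87 beside 0.00 for all genes, of which 31.5% were lower (16 lower and none higher under library size alone). MCM4 fell by 1.19 on the log2 scale (adjusted p = 1.58e-13), the licensing factor CDT1 by 1.13 (adjusted p = 3.71e-10) and the GINS subunit GINS2 by 0.88 (adjusted p = 1.58e-07). In shARNT the list was mixed, with 12 lower and 4 higher and a median of -0.16. Under library size alone this became 6 lower and 8 higher with a median of 0.07, so no direction is given for shARNT. GINS2 was lower there under both scalings (-1.25 and -1.01), while MCM4 was called lower under TMM (-0.13) and higher under library size alone (0.11). In the direct contrast 14 of 19 were higher in shARNT and 3 lower, beside 40.1% and 41.1% of all genes. Under library size alone these counts were 16 and 1.

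A list of cyclins and kinases that act after the D cyclins held CCNE1, CCNE2, CCNA1, CCNA2 and CDK2, the mitotic genes CCNB1, CCNB2 and CDK1, and the activating phosphatases CDC25A, CDC25B and CDC25C. In shBMAL1, 9 of these 11 were called lower and 1 higher, with a median of -0.52, beside 31.5% of all genes called lower and 31.9% higher. In shARNT 5 were higher and 4 lower, with a median of 0.15, beside 40.5% and 41.3% of all genes. CDK2, the kinase of cyclins E and A, fell in both (-1.71 in shARNT and -0.76 in shBMAL1, adjusted p = 1.9e-13 and 1.13e-07). The phosphatase CDC25B rose by 2.08 in shARNT (adjusted p = 5.18e-18) and fell by 0.88 in shBMAL1 (adjusted p = 8.1e-11), and CCNA1, the cyclin A of the germ line, did the opposite (-2.01 and 1.26, adjusted p = 6.13e-18 and 1.05e-14).

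**Figure D4:**
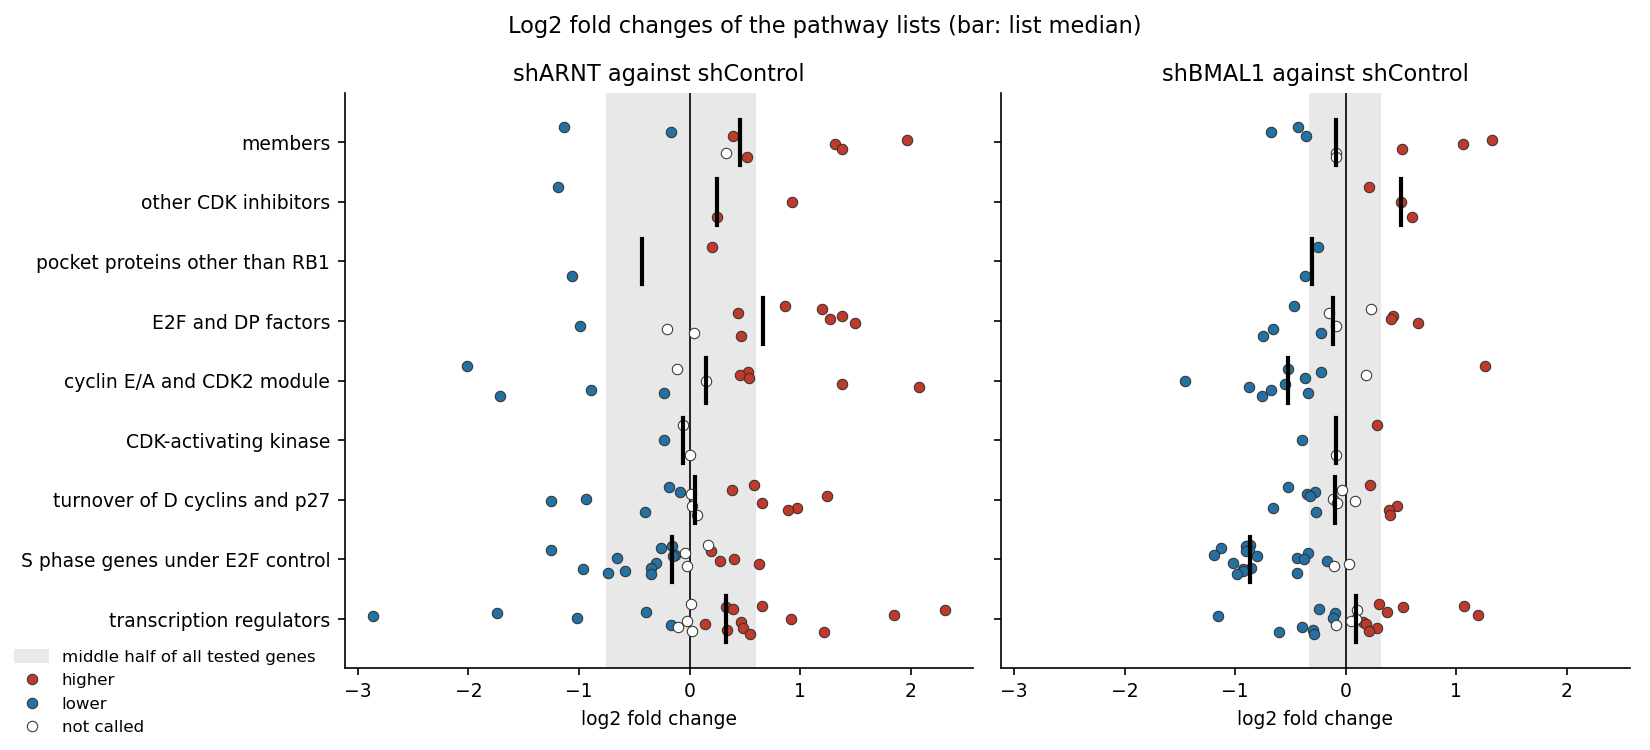
Log2 fold changes (x axis, shared scale) of the tested genes of each list in shARNT and shBMAL1 against shControl. Points are genes, colored by call at an adjusted p under 0.1, black bars are list medians and the grey band is the interquartile range of all tested genes. In shBMAL1 the S phase genes lie to the left, with a median of -0.87, while in shARNT their median is -0.16.

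The CDK-activating kinase, which phosphorylates CDK4 and CDK2, consists of CDK7, CCNH and MNAT1. CDK7 fell in shBMAL1 (-0.40, adjusted p = 5.37e-06) and was called lower in shARNT (-0.23, adjusted p = 8.49e-04), a call that ended under library size alone (0.00, adjusted p = 0.946). CCNH was called higher in shBMAL1 (0.28, adjusted p = 1.48e-04) and was at -0.06 in shARNT (adjusted p = 0.285), where library size alone gave 0.17 (adjusted p = 0.00648). MNAT1 was not called in either (0.00 in shARNT and -0.09 in shBMAL1, adjusted p = 0.971 and 0.438), though library size alone gave 0.24 in shARNT (adjusted p = 0.0347).

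Among 14 genes that turn over D cyclins or p27, 6 were higher and 5 lower in shARNT, and 4 were higher and 6 lower in shBMAL1. Of all genes, 40.5% were higher and 41.3% lower in shARNT and 31.9% and 31.5% in shBMAL1, so these counts lie near the background. Library size alone made the shARNT counts 10 higher and 2 lower. FBXO31 and FBXW8 encode F-box proteins that target cyclin D1, and RNF123 encodes a ligase for p27. FBXO31 rose in shARNT (1.24, adjusted p = 4.23e-14) and fell in shBMAL1 (-0.32, adjusted p = 1.02e-04), and so did RNF123 (0.97 and -0.66, adjusted p = 4.4e-12 and 2.12e-08). FBXW8 fell in shARNT (-1.25, adjusted p = 3.2e-12) and was at 0.08 in shBMAL1 (adjusted p = 0.36).

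Of 21 regulators of D cyclin or inhibitor transcription, 12 were higher and 5 lower in shARNT, and 9 were higher and 8 lower in shBMAL1. The shares of all genes were 40.5% higher and 41.3% lower in shARNT, and 31.9% and 31.5% in shBMAL1. Under library size alone the counts were 16 and 3 in shARNT and 11 and 6 in shBMAL1. The largest called changes by the same minimum level were those of KLF6 (-2.86 in shARNT and -1.16 in shBMAL1), FOXO4 (2.31 and 0.10) and KLF4 (1.85 and 1.2). KLF4 and KLF6 are activators of CDKN1A and FOXO4 of CDKN1B, and each change was called except that of FOXO4 in shBMAL1 (adjusted p = 0.58).

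The genes whose level most resembled that of CCND1 over the 9 libraries, among 11227 genes whose log2 CPM averaged 2 or more, were AMOT (Pearson r = 0.997), LOC100862671 (0.995) and NIPSNAP1 (0.995). The libraries form 3 groups, so these values describe the order of group means. AMOT changed by -2.05 in shARNT and -0.70 in shBMAL1, beside -1.14 and -0.43 for CCND1.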

How the data were processed

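The authors isolated RNA with a column kit, had stranded mRNA libraries sequenced at BGI as paired-end reads, aligned them to GRCh37 with SeqMan NGen and exported counts with ArrayStar. The submitters' processing notes name STAR, DESeq2 and hg38 instead, and which set made the table was not settled. No aligned position is used here. Gene positions and lengths come from GENCODE 44 lifted to GRCh37, and promoter windows from RefSeq on GRCh38.p14.

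The deposited values were expected counts (unnormalized totals of reads for each gene), mostly whole numbers. A value of 0.05 stood for no reads and was set to 0. Rows sharing a name were summed (43 names), 28 rows with a date as name were kept apart, and counts were rounded. Counting of strand, multi-mapping reads and pairs was not stated in the sources used here. Intervals and floors cover counting error only.

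All 9 libraries entered 1 edgeR 4.0.16 quasi-likelihood fit (R 4.3.3) on group, with TMM scaling and filterByExpr. A call required an adjusted p (Benjamini-Hochberg) below 0.1. The 95% intervals used the t distribution with prior and residual degrees of freedom. The edgeR fit was tested on simulated counts in which far fewer genes changed than were called here. Shares, ratios and permutation tests were not simulated. Shares were compared by exact two-sided permutation tests over libraries. Alternatives were other scalings, no filter, DESeq2 1.42.0, the 6 libraries of a contrast, a replicate block, each library left out, halved counts and a minimum fold of 1.5. Merged exon length, and other lengths for the inhibitor to cyclin ratio, were added after the data were seen.

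The members and gene lists were chosen with earlier results of these data known. Named genes were the members, the targeted genes, every gene of lists of 6 or fewer, the 3 largest called changes of each longer list whose log2 CPM averaged 2 or more, and the 3 genes most correlated with CCND1. LINC00441 (RB1-DT) was too low to test, and CCND2-AS1 and CDK6-AS1 were not found by name.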

Additional observations from a re-analysis of the deposited data

Results flagged for a closer look

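The effects of the depletions differed for all 8 tested members when shARNT and shBMAL1 were set against each other (edgeR), in a contrast that called 81.2% of all 15551 genes. CCND1 was lower in shARNT, by -0.71 on the log2 scale. CCND3 (0.51), CDK4 (0.75), CDK6 (0.66), CDKN1A (0.26), CDKN1B (0.87), CDKN1C (0.42) and RB1 (0.62) were higher. The CDKN1C call was lost without shBMAL1 replicate 1, shBMAL1 replicate 3 or shARNT replicate 1 (adjusted p = 0.106, 0.269 and 0.175). CDK4 was the only tested member called in opposite directions against shControl. Knockdown strength differed, with 30.9% of control BMAL1 transcript left in shBMAL1 and 18.8% of control ARNT in shARNT, and its part in these differences was not tested.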

How the results depend on the processing

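The log2 fold changes of the 8 members in 3 contrasts were recomputed under 17 alternatives, which gave 408 values. Of these 384 kept their direction and side of the threshold, 14 lost a call, 8 gained one and 2 reversed. The reversed values were CCND3 in shARNT under library size alone (0.06) and CDKN1C in shBMAL1 without shBMAL1 replicate 3 (0.09), neither called. Library size alone raised the median of all genes by 0.24 for shARNT, 0.05 for shBMAL1 and 0.19 between them, and the share of called genes that were higher was then 60.5%, 55.9% and 58.6%. A minimum fold of 1.5 left 4 members called for ARNT depletion, 3 for BMAL1 depletion and 3 between the depletions, and 6965, 2111 and 6831 of all genes, because it asks for larger changes. The count of members stayed within 1.5 times under every other alternative.

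Without division by length, the CCND1 share differed by -12.0 points for shARNT, 2.45 for shBMAL1 and -14.5 between them, and the CDK6 share by 3.43, 3.77 and -0.344 points. With merged exon length the CCND1 values were -10.8, 2.15 and -13.0, the CDK6 values in shARNT and shBMAL1 were 0.916 and 1.01, and the CDKN1A values in shBMAL1 and the direct contrast were 3.37 and -1.99. Leaving out single libraries, the CDK6 difference between the depletions ranged from -0.142 to 0.0171 points.

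Correlations of same-numbered deviations from group means ranged from -0.212 to 0.291. Differently numbered libraries were not correlated for reference, so these values do not settle whether replicate numbers paired the libraries. With a replicate block, 7 members were called for shARNT, 6 for shBMAL1 and 8 between them, as without it. Leaving out single libraries, CDKN1C in shBMAL1 ranged from -0.31 to 0.09. With halved counts CDKN1C in shARNT was 0.32 (adjusted p = 0.117), against 0.33 (adjusted p = 0.119) at full depth.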
